A study of Mus musculus with 12 samples.

Results

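Kupffer cells are the macrophages that live inside the liver sinusoids, and 10 genes that mark them were followed through the day in livers without cryptochromes. The 10 genes, Clec4f, Cd5l, Marco, Vsig4, Timd4, Csf1r, Cd68, C1qa, C1qb and C1qc, were taken by symbol from a raw exon count table of 22618 genes. All 10 were present and passed the low-count filter, which left 17142 genes. The livers came from male Cry1/Cry2 double-knockout mice of the C57BL/6j strain, 12 to 16 weeks old, with a conventionally raised gut flora and fed at night. Both cryptochrome genes were missing from every animal, and wild-type livers were not analysed here. Total RNA was sequenced at zeitgeber time (ZT) 2, 6, 10, 14, 18 and 22, with 2 libraries at each time and 12 in all. The last 3 of these times are called night and the first 3 day. Whether the libraries of a time came from separate mice is not stated, so p-values here measure only the spread between libraries, which may be technical.

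A Kupffer cell is anchored in the sinusoid wall, where blood from the gut and spleen passes over it. It binds and engulfs bacteria, immune complexes, aged red cells and dying cells through a set of surface receptors, digests them in lysosomes, and secretes proteins such as C1q into the blood. Its survival depends on signalling through the CSF1 receptor. In bulk liver RNA, fewer Kupffer cells and less RNA of a gene per Kupffer cell cannot be told apart.

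The labelled tissue was checked against its markers. Albumin (Alb), the main secreted product of hepatocytes, stood at 66637 ± 8260 CPM (SD, n = 12), where CPM are counts scaled to library size with TMM factors. Library totals were 34715506 to 46074052 counts, and each of the 10 markers had at least 215 counts in every library. All 12 further genes known from Kupffer cells also passed the filter, among them the lectin genes Clec1b (10.3 CPM) and Fcna (35.7 CPM) and the haemoglobin scavenger receptor gene Cd163 (21.1 CPM). Of 9 neutrophil genes 4 passed, led by Csf3r at 2.06 CPM, while Camp, Ngp and Mmp8 were at 0 in at least 1 library and reached no more than 0.197 CPM. Ltf was also at 0 in at least 1 library but reached 9.84 CPM. The 9 genes summed to 15.9 CPM in ZT22 replicate 1 and to 3.05 to 6.81 CPM in the other libraries. Of 8 genes of recruited monocytes 7 passed; Cx3cr1 averaged 42.1 CPM, Itga4 4.49 CPM, Plac8 4.48 CPM, Ccr2 2.53 CPM and Ly6c2 0.404 CPM.

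The promoters of 3 members are shown first. They were chosen because the C1q genes varied together from library to library while Marco varied more than the rest. Any link between these sequences and that pattern was not tested. C1qb, C1qc and C1qa lie side by side in that order within 18675 bases (chr4:136880129-136898803, mm10), all on the minus strand. The 250 bases before the RefSeq start are given 5′ to 3′ on the gene's strand (GRCm38.p6), and capitals mark GAGGAA or its reverse complement TTCCTC, core letters bound by the macrophage factor PU.1.
C1qb (chr4:136886201-136886450, minus strand): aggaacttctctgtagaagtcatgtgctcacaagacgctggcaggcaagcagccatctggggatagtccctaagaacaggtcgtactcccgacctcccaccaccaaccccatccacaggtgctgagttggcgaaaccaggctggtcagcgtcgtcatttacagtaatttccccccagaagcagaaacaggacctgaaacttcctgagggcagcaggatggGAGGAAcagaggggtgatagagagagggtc
C1qc (chr4:136892915-136893164, minus strand): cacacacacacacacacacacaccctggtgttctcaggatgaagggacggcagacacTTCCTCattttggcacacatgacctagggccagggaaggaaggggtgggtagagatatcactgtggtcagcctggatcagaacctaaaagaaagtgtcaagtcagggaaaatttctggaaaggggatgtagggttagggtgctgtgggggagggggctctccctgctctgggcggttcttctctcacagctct
Marco (chr1:120505025-120505274, minus strand): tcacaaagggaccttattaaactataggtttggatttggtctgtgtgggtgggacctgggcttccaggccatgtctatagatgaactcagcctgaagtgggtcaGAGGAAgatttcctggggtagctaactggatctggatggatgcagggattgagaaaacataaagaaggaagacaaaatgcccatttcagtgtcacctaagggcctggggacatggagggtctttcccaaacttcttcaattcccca
The match lay 30 bases before the start in C1qb and 146 before it in Marco, and in C1qc it was on the opposite strand, 193 bases before the start. In the GENCODE annotation, the source of gene positions here, C1qc starts inside its window (chr4:136893065). Clec4f does so too (chr6:83656187), so part of these windows lies within the annotated gene. Promoters of 8 members were searched on both strands; C1qa and Csf1r were not searched. GAGGAA was found in 6 of the 8 (Cd5l, Marco, Vsig4, Cd68, C1qb and C1qc) and in 23.3% of 32851 promoter windows of the same length. The windows of Clec4f and Timd4 did not hold it. CACGTG, the E-box bound by the clock factors CLOCK and BMAL1, was in 0 of the 8 and in 6.02% of all windows. GTGGGAA (reverse complement TTCCCAC), read by the Notch mediator RBPJ, was in 0 of the 8 and in 5.42% of all windows.

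Levels of different genes were compared per kilobase of merged exons. Clec4f (chr6:83644542-83656187), which encodes a Kupffer cell lectin, had the highest level at 43.2 ± 5.91 CPM per kb (SD, n = 12). Cd5l (chr3:87357881-87371073), which encodes the secreted scavenger-receptor protein AIM, followed at 41.1 ± 7.59 CPM per kb. C1qa, C1qb and C1qc were at 38.2 ± 6.32, 32.4 ± 5.39 and 22.2 ± 3.74 CPM per kb. Vsig4 (chrX:96247203-96293438), the gene of a receptor for fragments of complement C3, was at 20.6 ± 2.91 CPM per kb. Csf1r (chr18:61100598-61132149), the gene of the receptor for CSF1 and IL-34, was at 12.7 ± 1.84 CPM per kb. Cd68 (chr11:69664213-69666153), which encodes a lysosomal membrane glycoprotein found in macrophages generally, had 6.13 ± 1.03 CPM per kb. Marco (chr1:120474538-120505024), a collagen-like scavenger receptor gene, had 6.08 ± 2.98 CPM per kb. Timd4 (chr11:46810800-46844332), which encodes the phosphatidylserine receptor TIM-4 for dying cells, was lowest at 3.58 ± 0.698 CPM per kb.

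Neighbours in this order overlapped in their ranges over the 12 libraries, except Csf1r and Cd68. Within a library, C1qa was above C1qb and C1qb above C1qc in 12 of 12 libraries, but Clec4f was above Cd5l in 8 of 12 and C1qc above Vsig4 in 7 of 12. Csf1r shares 873 exon bases with Hmgxb3 on the opposite strand, which was at 20.9 CPM. The kit marks strand, but how the counting used it is not known here, so part of the reads of these genes cannot be told apart. No other member overlapped an exon of another gene.

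**Figure D1:**
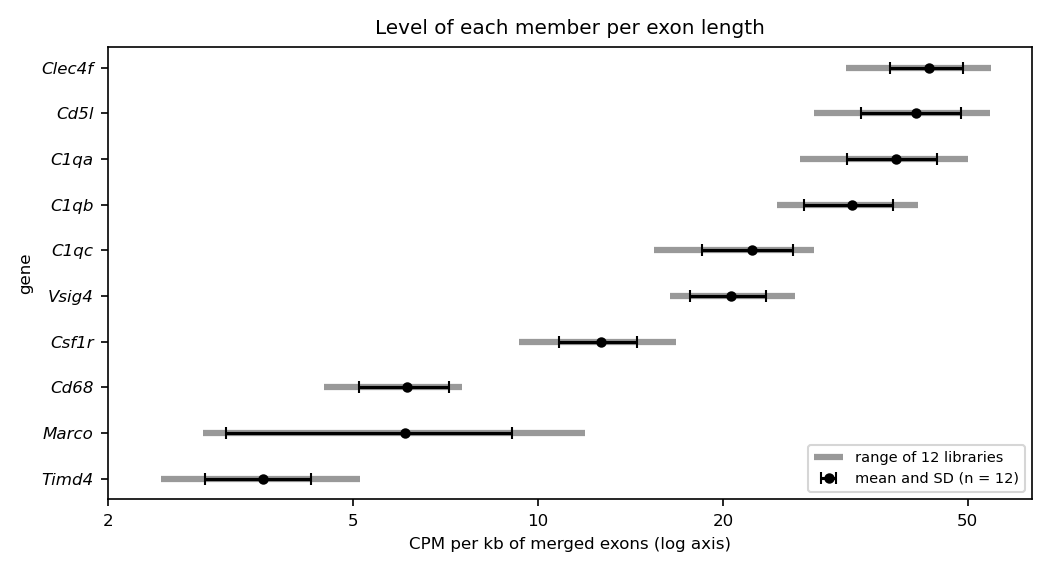
Level of each Kupffer cell marker as CPM per kb of merged exons on a log axis; grey bars span the 12 libraries, points and whiskers give the mean and SD (n = 12). The order runs from Clec4f at 43.2 to Timd4 at 3.58, and the bar of Marco is the longest of the 10 on this axis.

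The 10 markers varied together by library. All 10 had their highest CPM in ZT02 replicate 1 and all 10 their lowest in ZT14 replicate 2. Of all 17142 tested genes, 7.46% were highest in ZT02 replicate 1, 5.92% were lowest in ZT14 replicate 2 and 0.974% were both. Averaged over the 10 genes, log2 CPM stood 0.46 above the gene mean in ZT02 replicate 1 and at -0.50 in ZT14 replicate 2, with summed levels of 576 and 315 CPM. Part of this depended on the scaling: with RLE factors 9 were highest and 10 lowest in these libraries, and with total counts alone 6 and 9. The partner libraries differed in this. ZT02 replicate 2 was at 0.14 on average, with 9 of the 10 genes above their own median and 3 (Cd5l, Vsig4 and Cd68) at their second highest level. ZT14 replicate 1 was at -0.01 on average, with 7 of the 10 genes above their own median and 1, Marco, at its second lowest level.

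**Figure D2:**
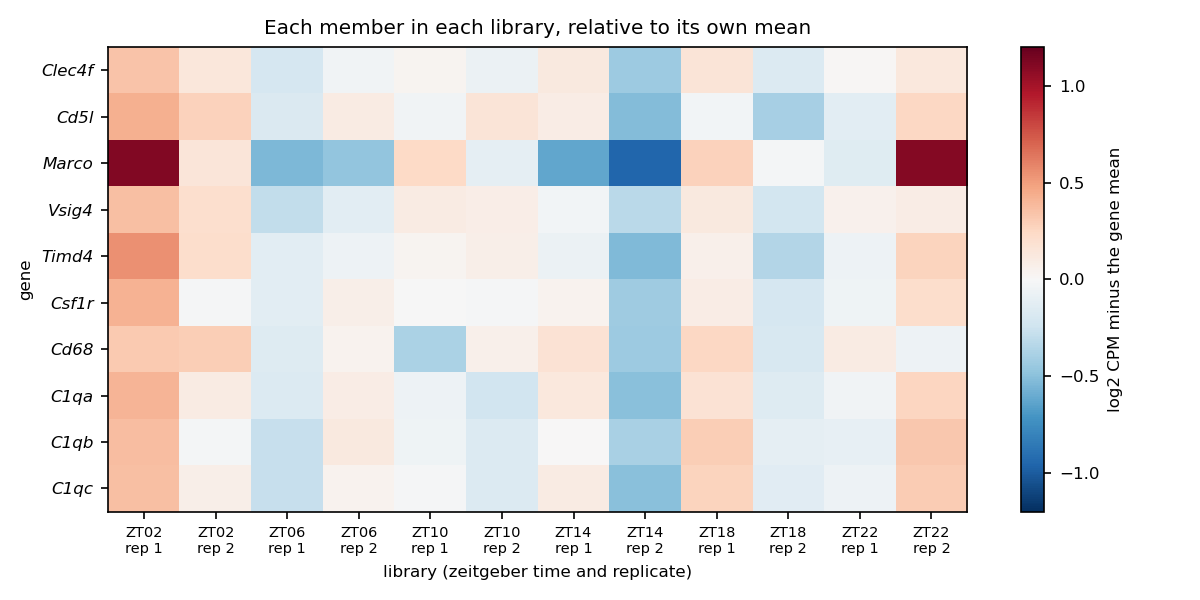
Each marker (rows) in each of the 12 libraries (columns, in order of zeitgeber time), as log2 CPM minus the mean of that gene. The ZT02 replicate 1 column is above and the ZT14 replicate 2 column below the gene mean in all 10 rows, and Marco is also high in ZT22 replicate 2.

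Other transcripts moved in the same libraries, and their part in this pattern was not tested. In ZT14 replicate 2 the 8 genes of pancreatic acinar cells summed to 26.8 CPM, against 0.334 to 4.46 CPM in the other libraries. Lymphocyte markers summed to 2.84 and 3.69 CPM in the ZT14 libraries and to 5.44 to 9.61 CPM in the rest. Erythroid genes summed to 378 CPM in ZT02 replicate 1, the highest of the 12, and to 293 CPM in ZT14 replicate 2, within a range of 117 to 378 CPM. Hepatocyte markers summed to 143890 CPM in ZT02 replicate 1, also the highest, against 103942 to 120902 CPM in the rest. Sinusoidal endothelial markers were at 685 CPM in ZT02 replicate 1 and 619 CPM in ZT14 replicate 2, inside their range of 594 to 804 CPM.

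The libraries of Clec4f stood at 135 and 116 CPM for ZT2, 92.0 and 103 for ZT6, 108 and 101 for ZT10, 115 and 78.4 for ZT14, 118 and 94.4 for ZT18, and 107 and 115 for ZT22. The ZT14 pair was the most unequal, and night and day libraries overlapped. Its coefficient of variation was 13.7% over the 12 libraries and 8.65% without ZT02 replicate 1 and ZT14 replicate 2. For Csf1r it was 14.5%, and 8.03% without them. The Csf1r libraries of ZT2 were at 96.7 and 71.9 CPM, and the other day libraries lay between 66.3 and 76.2 CPM. Vsig4 ran from 24.3 to 38.9 CPM (median 31.7), Cd68 from 5.64 to 9.46 CPM (median 7.87) and Timd4 from 5.29 to 11.1 CPM (median 7.58) over the 12 libraries. Apart from Marco, the highest library was 1.60 (Vsig4) to 2.10 (Timd4) times the lowest.

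**Figure D3:**
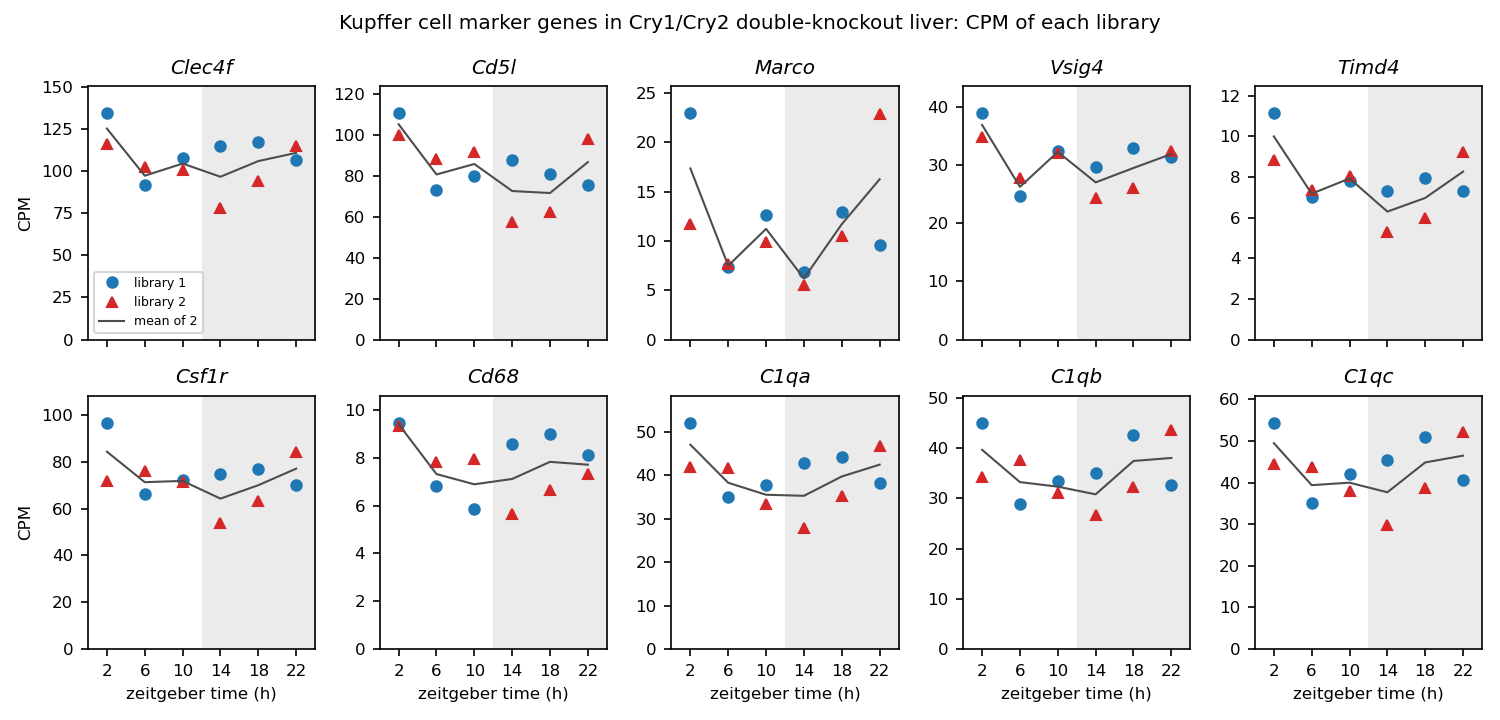
CPM of each marker against zeitgeber time (h), 1 panel per gene; points are the 2 libraries of a time and the line joins their means, with the night shaded. Clec4f runs from 78.4 to 135 CPM, and Marco has 2 libraries, at 23.0 and 22.9 CPM, above all its others.

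With all 12 libraries, no marker passed a test of time of day in edgeR. In the test of a 24 h rhythm (quasi-likelihood test, Benjamini-Hochberg adjusted over all genes), 0 of 10 were called, where 12% of all tested genes were. At an unadjusted p under 0.05 there were 2 of 10, Marco and Timd4, against 31.5% of all genes, and DESeq2 called 0 of 10, against 19.9% of all genes. In the test of any difference among the 6 times, edgeR called 0 of 10, against 4.82% of all genes. There, 2 of 10 had an unadjusted p under 0.05, Marco and Vsig4, against 24.8% of all genes. DESeq2 called 1 of 10, Marco, against 14.8% of all genes. The fitted peak-to-trough range had a median of 1.28-fold over the 10 genes and 1.31-fold over all tested genes. Apart from Marco, fitted ranges were 1.19-fold (Vsig4) to 1.40-fold (Timd4), with upper 95% limits of 1.55-fold (Vsig4) to 1.89-fold (Timd4). The mean of the 2 libraries was highest at ZT2 in 10 of 10 genes and lowest at ZT14 in 7 of 10, the times of the 2 extreme libraries. Without that pair the edgeR adjusted p of the 24 h test was 0.338 for Marco, 0.905 for Csf1r and between these for the other 8.

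The comparison of night with day, the feeding and the resting phase, also called 0 of 10 in edgeR and in DESeq2, against 9.7% of all genes in edgeR (4.8% higher and 4.89% lower at night) and 12.2% in DESeq2. At an unadjusted p under 0.05 there were 0 of 10, against 26.6% of all. The calls over all genes split into 823 higher and 839 lower, and into 1077 and 624 with scaling by total counts alone. The median log2 difference of night minus day was -0.08 over the 10 genes and 0.01 over all tested genes, and the fitted value was below 0 in 8 of 10, against 48.8% of all. Night and day libraries overlapped for every marker.

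With all 12 libraries, Cd5l and Timd4 had the differences furthest from 0. Cd5l ran from 57.3 to 97.8 CPM in the 6 night libraries (median 78.2) and from 73.2 to 111 CPM in the 6 day libraries (median 89.8). Its log2 difference was -0.23 ± 0.12 (SE; 95% interval -0.50 to 0.03), with an edgeR adjusted p = 0.25. Timd4 ran from 5.29 to 9.22 CPM at night (median 7.30) and from 7.02 to 11.1 CPM by day (median 7.93). Its log2 difference was -0.22 ± 0.12 (95% interval -0.48 to 0.04), with an edgeR adjusted p = 0.271. Neither passed the test, and night and day overlapped for both. Cd5l moved to -0.14 without ZT14 replicate 2. Without that library and ZT02 replicate 1, Cd5l was at -0.11 and Timd4 at -0.08. On the other side of 0, C1qb (0.15), C1qc (0.15), Marco (0.14) and C1qa (0.12) then lay further from it. Against the mean of the other 9 markers in the same library, Timd4 was at -0.17 to -0.02 at night and at -0.04 to 0.12 by day (centred log2), which again overlapped. Clec4f had a log2 difference of -0.06 with an interval of -0.28 to 0.17, C1qb 0.01 with -0.26 to 0.28 and C1qa -0.04 with -0.30 to 0.23.

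**Figure D4:**
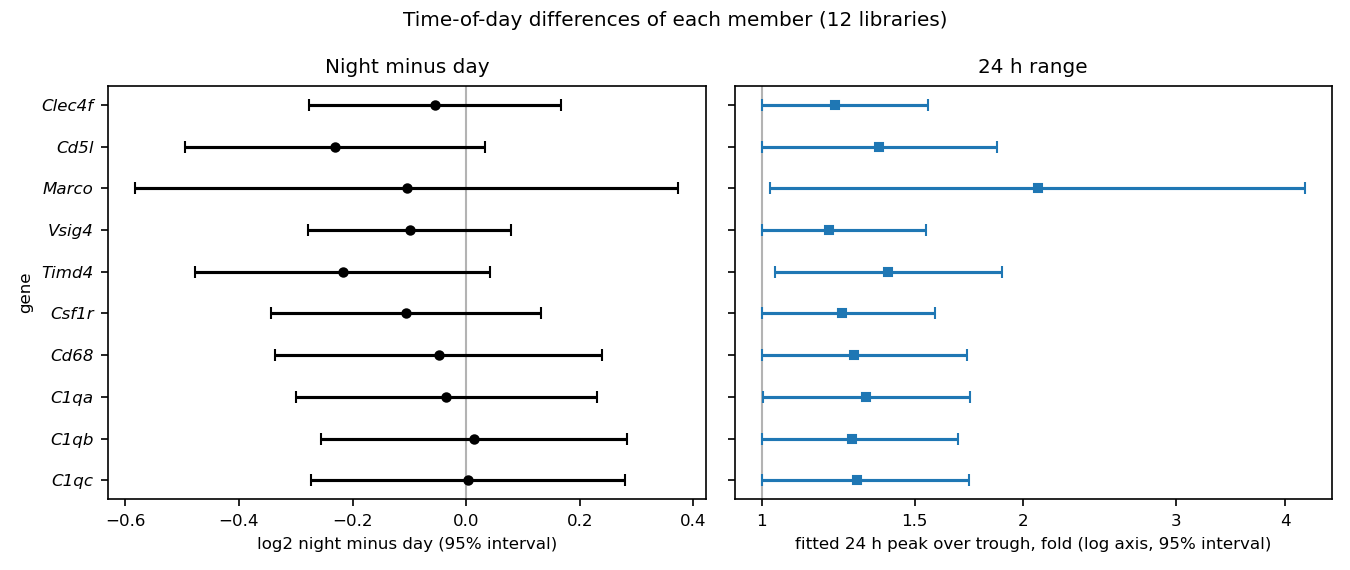
Log2 night minus day of each marker with its 95% interval from the edgeR fit, and the fitted 24 h peak over trough as a fold with its 95% interval. The lower limit of the fold was kept from falling below 1. All 10 night and day intervals include 0, and Marco has the widest interval in both panels.

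Marco varied more than the other 9. Its libraries were at 23.0 and 11.8 CPM for ZT2, 7.34 and 7.65 for ZT6, 12.6 and 9.87 for ZT10, 6.90 and 5.50 for ZT14, 12.9 and 10.5 for ZT18, and 9.61 and 22.9 for ZT22. ZT02 replicate 1 and ZT22 replicate 2 were far above their own partners, and the libraries of ZT6 and ZT14 were all low. The coefficient of variation was 48.9%, against 13.7% to 19.5% in the other members, and the highest library was 4.18 times the lowest. Between libraries of the same time, edgeR estimated a variation of 26.1% for Marco, at or above that of 83.5% of all tested genes, and of 11.4% to 16.4% for the other 9.

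The fitted 24 h range of Marco was 2.08-fold (95% interval 1.02 to 4.22) with a peak at ZT 23.7 ± 1.64 h (SE) and an edgeR adjusted p = 0.12. The test of any time difference gave an edgeR adjusted p = 0.115, and 0.000437 to 0.281 over the 20 alternatives. It passed without ZT22 replicate 1 (edgeR adjusted p = 0.0453) and with DESeq2 (adjusted p = 0.000437). Relative to the mean of the other 9 markers in the same library, Marco ranged from -0.69 in ZT14 replicate 1 to 0.90 in ZT22 replicate 2 (centred log2), with an SD of 0.48. The SD of this measure was 0.08 to 0.21 in the other 9 genes, with Cd68 at the upper end.

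The 3 C1q genes encode the A, B and C chains of 1 protein, which holds equal numbers of each chain and starts the classical complement pathway. C1qa ran from 27.8 to 52.1 CPM, C1qb from 26.6 to 45.1 CPM and C1qc from 29.9 to 54.4 CPM over the 12 libraries. The ratios between them varied far less than the levels. C1qa to C1qc per kb was 1.72 ± 0.0682 (SD, n = 12), and the spread of its logarithm was 3.96% where counting error gives 3.57%. C1qb to C1qc was 1.46 ± 0.0625 (spread 4.27%, counting error 3.69%) and C1qa to C1qb 1.18 ± 0.0714 (6.03% and 3.75%). The ratio of Marco to Clec4f had a spread of 34.9% with a counting error of 5.35%, and that of Clec4f to Timd4 9.05% with 6.06%. The level of each ratio rests on the annotated exon lengths.

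Over the 12 libraries, log2 CPM of C1qa and C1qc correlated at r = 0.97, of C1qb and C1qc at 0.97, of Clec4f and C1qc at 0.95 and of Cd5l and Timd4 at 0.94. The 45 pairs of markers ran from 0.37 (Marco and Cd68) to 0.97, with a median of 0.81. The points share libraries and scaling, so these values are descriptions. Against the mean of the other 9, r was 0.95 for Clec4f and for Csf1r, 0.78 for Marco and 0.67 for Cd68. Among 9866 other genes of at least 5 CPM, the 5 most like the mean of the 10 markers were Emr1 (r = 0.95), Cybb (0.95), Siglec1 (0.94), Rac2 (0.91) and Lyz2 (0.91). Emr1 encodes the macrophage surface protein F4/80, Cybb a subunit of the phagocyte NADPH oxidase, Siglec1 a sialic acid receptor of tissue macrophages, Rac2 a GTPase of blood cells and Lyz2 lysozyme. Leaving out 1 library kept these r between 0.849 (Rac2) and 0.979 (Siglec1). Of the 12 pan-macrophage genes at or above 5 CPM, 10 were among the 100 genes with the highest r, and of the 9 other Kupffer cell genes at that level, 2 were.

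In the list of pan-macrophage genes, 2 of 19 passed the 24 h test in edgeR, against 12% of all tested genes, and 4 of 19 in DESeq2, against 19.9%. Itgam, which encodes the integrin CD11b, had a range of 2.38-fold with a peak at ZT 22.8 h (edgeR adjusted p = 0.0111), and the scavenger receptor gene Msr1 a range of 1.44-fold with a peak at ZT 23.9 h (edgeR adjusted p = 0.0217). The median range of the list was 1.32-fold, beside 1.31-fold over all tested genes. Night and day differed in 0 of 19 by edgeR and by DESeq2, with 2 of 19 at an unadjusted p under 0.05, against 26.6% of all genes. Without ZT02 replicate 1 and ZT14 replicate 2, Itgam kept its call (edgeR adjusted p = 0.0465) and Msr1 did not (edgeR adjusted p = 0.107).

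Of the 12 other Kupffer cell genes, edgeR called 1, Clec1b, the gene of the lectin receptor CLEC-2, in the 24 h test (12% of all genes) and in the night and day test (9.7%). DESeq2 called 5 of 12 in the 24 h test (19.9% of all genes) and 4 of 12 for night and day (12.2%). At an unadjusted p under 0.05 in edgeR there were 5 (31.5% of all genes) and 4 (26.6%). Clec1b averaged 8.89 ± 0.90 CPM in the night libraries and 11.7 ± 1.24 CPM in the day libraries (SD, n = 6 each). It was lower at night by log2 -0.40 ± 0.09 (SE; edgeR adjusted p = 0.0252), and its adjusted p was 0.0735 without ZT02 replicate 1 and ZT14 replicate 2. Of the 12 fits that leave out 1 library, 7 did not call it for night and day and 8 not in the 24 h test, where its adjusted p was 0.0356 in edgeR with all libraries. The median log2 night minus day of this list was -0.08 and its median range 1.30-fold.

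Among 7 markers of recruited monocytes, Cx3cr1, the fractalkine receptor gene, was the 1 called for night and day in edgeR (9.7% of all genes), and was higher at night. It averaged 47.0 ± 6.14 CPM in the night and 37.2 ± 2.60 CPM in the day libraries (SD, n = 6 each; edgeR adjusted p = 0.0232). Its adjusted p was 0.0535 without ZT02 replicate 1 and ZT14 replicate 2, and 7 of 12 fits that leave out 1 library did not call it. In the 24 h test edgeR called 2 of 7, Cx3cr1 and Plac8 (12% of all genes). Plac8 had a range of 1.67-fold (edgeR adjusted p = 0.0458), which 10 of those 12 fits did not keep. Of the 4 tested neutrophil genes, edgeR called 0 in the 24 h test, where 2 had an unadjusted p under 0.05 and DESeq2 called 1 (12%, 31.5% and 19.9% of all genes). For night and day, 0 of 4 passed edgeR, DESeq2 or an unadjusted p under 0.05 (9.7%, 12.2% and 26.6% of all genes).

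For the CSF1R ligands and macrophage transcription factors, edgeR called 0 of 10 genes in the 24 h test, where 2 had an unadjusted p under 0.05 and DESeq2 called 2 (12%, 31.5% and 19.9% of all genes). For night and day it called 0 of 10, with 4 at an unadjusted p under 0.05 and 1 called by DESeq2 (9.7%, 26.6% and 12.2% of all genes). Csf1, a ligand gene, ran from 10.8 to 24.7 CPM and Il34, the other, from 1.27 to 2.47 CPM. Nr1h3, the gene of the nuclear receptor LXR alpha that hepatocytes also express, was at 90.4 ± 7.30 CPM at night and 77.5 ± 2.27 CPM by day (SD, n = 6 each; edgeR adjusted p = 0.0609). Maf, the gene of a macrophage transcription factor, was at 52.7 ± 3.68 CPM over the 12 libraries.

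In the classical complement pathway, 1 of 8 genes passed the 24 h test in edgeR, against 12% of all genes, and 2 in DESeq2, against 19.9%. This was C4b, with a range of 1.41-fold (edgeR adjusted p = 0.0286), which 5 of 12 fits that leave out 1 library did not keep. Night and day called 0 of 8 in edgeR and DESeq2, with 0 at an unadjusted p under 0.05 (9.7%, 12.2% and 26.6% of all genes). C1ra and C1s1, the genes of the proteases that bind C1q, had fitted ranges of 1.06-fold and 1.08-fold. Of 12 scavenger and uptake receptors, edgeR called 2 lower at night, against 4.89% of all genes, and 2 in the 24 h test (Cd36 and Msr1), against 12%. Msr1 is also in the pan-macrophage list. DESeq2 called 4 of the 12 receptors in the 24 h test (19.9% of all genes) and 2 for night and day (12.2%). At an unadjusted p under 0.05 in edgeR there were 4 (31.5%) and 4 (26.6%). Cd36, a fatty acid transporter gene, had a log2 difference of -0.56 (edgeR adjusted p = 0.0204), and Clec7a, which encodes the glucan receptor Dectin-1, -0.50 (edgeR adjusted p = 0.0324). Of the 12 fits that leave out 1 library, 8 did not keep the night and day call of Clec7a and 3 not that of Cd36. Without ZT02 replicate 1 and ZT14 replicate 2 the edgeR adjusted p was 0.0501 for Cd36 and 0.0707 for C4b and for Clec7a. Of 12 lysosome genes, edgeR called 1 lower at night (4.89% of all genes), Ctsl, which encodes cathepsin L (log2 difference -0.23, adjusted p = 0.0474), and 12 of 12 fits that leave out 1 library did not keep that call. Ctsl was also the 1 called in the 24 h test (edgeR adjusted p = 0.0326, 12% of all genes), which 8 of those 12 fits did not keep. DESeq2 called 3 of 12 in the 24 h test (19.9%) and 2 for night and day (12.2%). At an unadjusted p under 0.05 in edgeR there were 3 (31.5%) and 3 (26.6%). The fitted value was lower at night in 11 of 12 (48.8% of all genes). Summed levels were 2664 to 2792 CPM at night and 2845 to 3226 CPM by day, a gap that was not tested. Among the 17 lists, only this one had night and day sums that did not overlap. How many of all genes separate in this way was not counted.

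**Figure D5:**
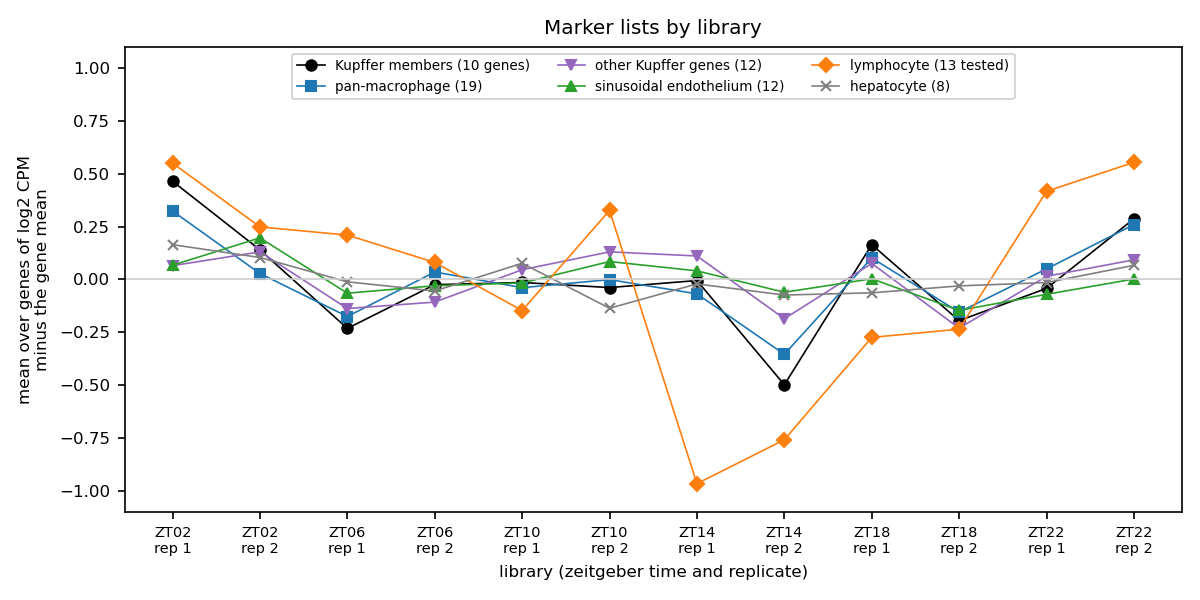
Mean over the tested genes of each list of log2 CPM minus the gene mean, by library in order of zeitgeber time. The Kupffer cell markers and the pan-macrophage genes are both highest in ZT02 replicate 1 (0.46 and 0.32) and lowest in ZT14 replicate 2 (-0.50 and -0.35), while the other Kupffer cell genes are highest in ZT02 replicate 2 (0.13) and lowest in ZT18 replicate 2 (-0.23).

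In ZT02 replicate 1, 5 of 19 pan-macrophage genes had their highest level, and in ZT14 replicate 2, 9 of 19 had their lowest. Of all tested genes, 7.46% were highest and 5.92% lowest in these libraries. The 12 other Kupffer cell genes had 2 highest and 5 lowest there. For sinusoidal endothelial genes the counts were 2 and 2 of 12, and for hepatocyte genes 3 and 0 of 8. The difference between these lists and the 10 markers was not tested.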

How the data were processed

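Per the labels' protocols, liver RNA had been depleted of ribosomal RNA and made into strand-marking libraries. The authors deposited 1 table of raw counts over exons for 12 libraries. The submitters' processing notes name STAR 2.4.0i and mm10; the counter, its strand setting and the annotation: not given in the sources used here. A count of 0 allows up to 0.0864 CPM in the smallest library, for counting error only. All 10 identifiers were found in GENCODE M21 (mm10), the source of positions and exon lengths.

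All genes were fitted together in R 4.3.3 with edgeR 4.0.16 (filterByExpr, minimum count 10 and minimum total 15; TMM factors; glmQLFit and glmQLFTest), with 24 h cosine and sine terms, and with 6 time groups for night minus day and for any time difference. Calls used a Benjamini-Hochberg adjusted p under 0.05. An SE is the log2 difference over the root of F. Ranges and peak times come from least squares on log2 CPM (prior count 2). The fits were tested on simulated counts. Replicates of a time differed beyond sampling noise (16.8 to 100.5 chi-square per degree of freedom). As alternatives, DESeq2 1.42.0, RLE factors, total counts, no filter, a replicate block and each library left out were run, and, chosen after seeing the data, 3 pairs of libraries left out. Named were all 10 markers; up to 3 genes of each other list called in the 24 h or night and day test, by smallest adjusted p, or its 2 most abundant if it had none; and the 5 genes of at least 5 CPM most like the markers. Camp, Ngp, Mmp8, Ly6c2, Ccr2, Itga4, Fcna, Cd163, Csf1, Il34, C1ra, C1s1 and Ltf were chosen after their values were seen. The members, lists and rule were chosen with earlier results of these data known.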

Additional observations from a re-analysis of the deposited data

Results flagged for a closer look

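The night and the day libraries of each marker, 6 each, gave 20 sets, and 2 of them held a library that stood apart by Dixon's test at its 95% critical value. Chance gives about 1 in 20 such sets. Both flagged sets were of day libraries, and in both the library standing apart was the same, ZT02 replicate 1. It was at 23.0 CPM for Marco (gap to the next library over the whole range 0.664) and at 96.7 CPM for Csf1r (0.675).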

How the results depend on the processing

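None of the 10 markers was called in the 24 h or the night and day test under any of the 20 alternatives; the smallest adjusted p of the 24 h test was 0.0529 (Marco without ZT10 replicate 1). For any time difference DESeq2 called 1 marker (Marco), and fits without 1 library called 0 to 1. Over all genes, DESeq2 called 3416 in the 24 h test and 2532 for any time difference. Leaving out ZT02 replicate 2 with ZT06 replicate 1 gave 1276 genes in the 24 h and 865 in the night and day test, and ZT02 replicate 1 with ZT06 replicate 2 gave 568 and 1107. Leaving out ZT02 replicate 1 with ZT14 replicate 2 gave 589 in the 24 h test and 392 for any time difference. Leaving out 1 library gave 1201 to 2225 genes in the 24 h test, 611 to 1818 for night and day and 174 to 897 for any time difference. The cause was not tested.

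The sign of night minus day changed in 37 of 200 refitted marker values, none of them called. The log2 differences without ZT02 replicate 1 and ZT06 replicate 2 were 0.012 for Clec4f, 0.097 for Marco, 0.0087 for Csf1r and 0.067 for C1qa. Without ZT02 replicate 1 and ZT14 replicate 2 they were 0.070 for Clec4f, 0.14 for Marco, 0.049 for Csf1r, 0.053 for Cd68 and 0.12 for C1qa. Without ZT02 replicate 2 and ZT06 replicate 1 they were -0.10 for C1qb and -0.087 for C1qc, and with no low-count filter -0.0047 and -0.015. Leaving out 1 library gave -0.16 to 0.027 for Clec4f, -0.36 to 0.087 for Marco, -0.16 to 0.042 for Cd68, -0.15 to 0.056 for C1qa, -0.062 to 0.088 for C1qb and -0.11 to 0.093 for C1qc. With the replicate block C1qc was at -8.1e-05, and 1896 genes were called in the 24 h, 1609 in the night and day and 774 in the any-time test, with 0 markers in each. The labels do not say that the numbers pair the samples, and differences between replicates 1 and 2 correlated between times at r of -0.22 to 0.50, above 0.1 in 5 of 15 pairs of times.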

Other observations

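Lyve1, a hyaluronan receptor gene of sinusoidal endothelium that some macrophages also express, averaged 15.1 ± 5.30 CPM (SD, n = 12). It had a 24 h range of 2.29-fold with a peak at ZT 13.2 h (edgeR adjusted p = 0.0103) and passed the test in all 20 alternatives. Oit3, of the same endothelial list, had a range of 1.32-fold (edgeR adjusted p = 0.0415, not kept in 9 of 12 fits without 1 library). Bmp2, which endothelial cells secrete, was lower at night by log2 -0.35 (edgeR adjusted p = 0.024, not kept in 7 of those 12 fits). Together edgeR called 2 of 12 endothelial genes in the 24 h test (12% of all genes) and 1 for night and day (9.7%). The summed level of the neutrophil genes was 15.9 CPM in ZT22 replicate 1 and 3.05 to 6.81 CPM in the other libraries, and Ltf, which encodes lactoferrin, ran from 0 to 9.84 CPM. S100a9, a tested neutrophil gene, averaged 0.930 CPM.

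Of 7 immediate early genes, edgeR called 4 in the 24 h test (12% of all genes), among them Jun (range 3.13-fold, adjusted p = 0.00247), Egr1 (9.43-fold, adjusted p = 0.00942) and Atf3 (3.20-fold, adjusted p = 0.0311), and Jun was also called higher at night (adjusted p = 0.0487, not kept in 10 of 12 fits without 1 library). Of 13 lymphocyte genes, edgeR called 1, the T cell gene Cd8a, in the 24 h test (12% of all genes) and for night and day (9.7%). Cd8a was at 0.205 ± 0.123 CPM at night and 0.449 ± 0.138 CPM by day (SD, n = 6 each). Its log2 difference was -1.28 (edgeR adjusted p = 0.0111), and DESeq2 gave no adjusted p for it. At an unadjusted p under 0.05 in edgeR there were 6 of 13 in the 24 h test (31.5% of all genes) and 4 of 13 for night and day (26.6%). DESeq2 called 0 of 13 in both tests (19.9% and 12.2% of all genes). The fitted value was lower at night in 13 of 13 (48.8% of all genes), with a median log2 difference of -0.48. The night libraries were not alike. Averaged over the tested genes, log2 CPM minus the gene mean was -0.97 and -0.76 at ZT14 and -0.27 and -0.24 at ZT18. It was 0.42 and 0.55 at ZT22, and -0.15 to 0.55 in the day libraries. In the other lists edgeR called 0 genes in both tests. At an unadjusted p under 0.05 in the 24 h and the night and day test there were 1 and 1 of 10 stellate genes, 1 and 1 of 6 cholangiocyte genes, 0 and 1 of 8 hepatocyte genes, 0 and 2 of 5 erythroid genes and 0 and 0 of 2 pancreatic genes, against 31.5% and 26.6% of all genes. DESeq2 called 1 of these, a cholangiocyte gene in the 24 h test. The most abundant of each were Reln (145 CPM) and Dcn (143 CPM), Spp1 (41.4 CPM) and Sox9 (3.12 CPM), Alb (66637 CPM) and Trf (16065 CPM), Alas2 (81.8 CPM) and Hbb-b1 (74.2 CPM), and Cela2a (1.33 CPM) and Ctrb1 (0.716 CPM).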
